A study of Mus musculus with 18 samples.

Results

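Gfra4 and Adam33 are neighbouring genes on mouse chromosome 2, and their transcripts were followed here through invariant natural killer T (iNKT) cells of the thymus. The pair, 2 of the 23337 genes of the count table, was chosen by its measured levels in these libraries and by its position, so its own levels and differences are given as a description with no test. RNA was sequenced from 3 iNKT subsets, NKT1, NKT2 and NKT17, of WT and SKG mice, with 3 libraries in each of the 6 groups (18 libraries). WT mice carry normal Zap70, and in SKG mice 1 amino acid of the ZAP70 kinase, which relays signals from the T cell receptor, is changed. Zap70 lies on chromosome 1, and its mutation cannot be seen in counts per gene. Both kinds of mice were F3 animals, bred as separate WT and SKG lines from the F2 of a cross of SKG with BALB/cJ. No ages are given in the labels, and whether a library holds the cells of 1 mouse or of several is not given in the sources used here, so the spread between libraries may be partly technical. All subsets were sorted as cells that bind a CD1d tetramer loaded with a glycolipid. NKT1 cells were CD49a+ with little ICOS, NKT2 cells were CD49a- Sdc-1- with high ICOS, CD4 and TCR beta, and NKT17 cells were CD49a- Sdc-1+ with high ICOS.

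Gfra4 encodes a co-receptor of the glial cell line-derived neurotrophic factor (GDNF) family. Such co-receptors sit on the outer face of the cell membrane, bind a ligand of the family and present it to the receptor tyrosine kinase RET, and GFRA4 is the partner of persephin. They are best known from neurons and neuroendocrine cells such as the calcitonin-producing C cells of the thyroid. Adam33 encodes a membrane-anchored metalloprotease of the ADAM family, whose members cut the outer parts of membrane proteins, and it is best known from airway smooth muscle and fibroblasts, where variants of the human gene have been linked to asthma.

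Both genes lie on the minus strand, one behind the other. On build NCBIM37 (mm9), the annotation places Gfra4 (ENSMUSG00000027316.8) at chromosome 2, 130865368 to 130868824, and Adam33 (ENSMUSG00000027318.8) at 130876327 to 130889550. The 7502 bases between the end of Adam33 and the start of Gfra4 hold no annotated gene. Upstream of Adam33 follows Siglec1, a sialic acid-binding receptor of macrophages, after 5405 bases on the same strand. Beyond Gfra4 lies Atrn, which encodes attractin, after 9298 bases on the plus strand. The genes do not overlap in this annotation. The gene models and strand option with which the authors counted are not given in the sources used here.

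The promoter of Gfra4, which lies in the gap between the genes, is shown as a description. It precedes Gfra4 only, and its part in the levels of either gene was not tested. The RefSeq sequence before the upstream start of Gfra4, chr2:131043089-131043338 on the minus strand of GRCm38.p6, was searched on both strands for 4 short motifs known from lymphocyte factors. Capitals mark the matches found.
Gfra4 promoter: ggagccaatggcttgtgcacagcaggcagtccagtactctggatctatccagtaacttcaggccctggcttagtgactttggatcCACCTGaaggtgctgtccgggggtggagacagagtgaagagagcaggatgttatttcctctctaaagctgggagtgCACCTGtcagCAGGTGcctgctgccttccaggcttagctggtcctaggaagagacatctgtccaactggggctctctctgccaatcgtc
The E-box CAGGTG, a site type of basic helix-loop-helix factors, was found 3 times, at 165, 89 and 79 bases before the start, in 2 cases as its reverse complement CACCTG. Of 32851 RefSeq promoter windows of the same length, 17.2% hold at least 1 such match. The RUNX letters TGTGGT (in 14.0% of windows), the GATA letters AGATAA (10.0%) and the T-bet letters TCACAC (12.3%) were not in this window. RefSeq also gives Gfra4 a second start, whose window (chr2:131042683-131042932, minus strand) holds no E-box match but has the RUNX letters TGTGGT 72 bases before that start. This second window lies past the upstream start, within Gfra4 and not in the gap. For Adam33 no sequence is printed.

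Gfra4 transcripts were abundant in WT NKT17 cells, present at a lower level in WT NKT2 cells and nearly missing from every other group. In WT NKT17 the 3 libraries held 732, 371 and 391 reads of Gfra4, or 143, 64.5 and 53.7 CPM (reads of a gene per 1000000 reads of its library, after TMM scaling), a mean of 87.0 ± 48.7 CPM (SD, n = 3). In WT NKT2 they held 122, 38 and 38 reads, or 24.9, 6.64 and 6.14 CPM (mean 12.6 ± 10.7 CPM, SD, n = 3). In the 12 libraries of the other groups the counts were at most 4. They were 0, 0 and 3 in WT NKT1, 1, 0 and 0 in SKG NKT1, 1, 0 and 0 in SKG NKT2, and 0, 4 and 1 in SKG NKT17. A count of 0 allows up to 3 counts, which was 0.362 to 0.661 CPM at the depth of these libraries, for counting error only. In order of level, WT NKT17 stood above WT NKT2 and WT NKT2 above the rest with no overlap of libraries, while the ranges of WT NKT1, SKG NKT1, SKG NKT2 and SKG NKT17 overlapped.

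Adam33 followed the same order in a narrower form, being abundant in WT NKT17 cells alone. In WT NKT17 the libraries held 247, 164 and 435 reads of Adam33, or 48.2, 28.5 and 59.7 CPM (mean 45.5 ± 15.8 CPM, SD, n = 3). In WT NKT2 they held 11, 0 and 1 reads, or 2.25, 0 and 0.162 CPM. The WT NKT2 library with 11 reads was replicate 1, which was also the one with the most Gfra4. No read of Adam33 was counted in WT NKT1 or in SKG NKT2, 1 was counted in the 3 SKG NKT1 libraries together, and the SKG NKT17 libraries held 0, 3 and 0. WT NKT17 thus overlapped with no other group, and the 5 other groups overlapped with each other. Per kilobase of exon (2165 bases annotated for Gfra4 and 5394 for Adam33), the level in WT NKT17 was 40.2 ± 22.5 CPM per kilobase for Gfra4 and 8.43 ± 2.92 for Adam33 (SD, n = 3).

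**Figure D1:**
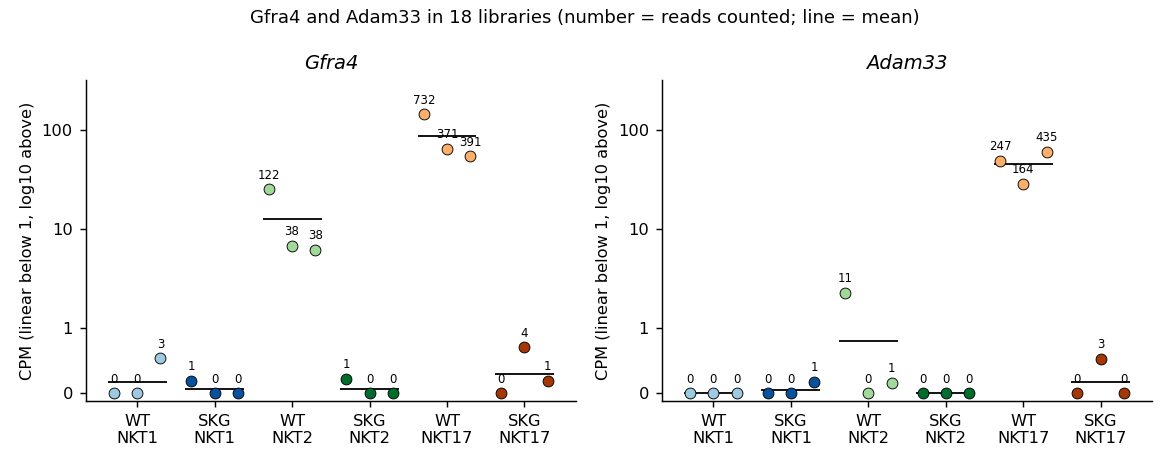
Level of Gfra4 (left) and Adam33 (right) in CPM for each of the 18 libraries, with the reads counted above each point and the group mean as a line; the axis is linear below 1 and logarithmic above. The WT NKT17 libraries lie between 53.7 and 143 CPM for Gfra4 and between 28.5 and 59.7 CPM for Adam33, and every SKG library lies below 1 CPM.

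Between genotypes, both genes fell to near the limit of detection in SKG NKT17 cells. Summed over libraries, Gfra4 had 1494 reads in WT NKT17 and 5 in SKG NKT17, a level 298-fold higher in WT (95% exact counting interval 127 to 920). Adam33 had 846 and 3 reads, a level 281-fold higher in WT (96.0 to 1370). Such intervals cover counting error only, not the spread between libraries. The fitted log2 fold changes were -8.18 (SE 0.86) for Gfra4 and -7.92 (SE 0.98) for Adam33, and as the SKG libraries were near 0, these depend on the prior count of the fit. For both members the libraries of the genotypes lay apart without overlap, as was the case, in the lower direction, for 13.9% of the 11118 genes tested. In this contrast 8.37% of all tested genes were called, a call being an adjusted p under 0.1 in edgeR's quasi-likelihood test with a fold of at least 1.5. Since the members were chosen for these levels, nothing is read from either share. In bulk samples, fewer cells with a transcript and less of it per cell cannot be told apart.

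The single SKG library with more than 1 read of either gene was SKG NKT17 replicate 2, which held 4 reads of Gfra4 and 3 of Adam33. Without it, the fitted log2 fold changes were -9.72 for Gfra4 and -11.05 for Adam33. Within a genotype, the libraries of all subsets with the same replicate number share a token in their sample titles, the meaning of which is not given. WT replicate 1 and SKG replicate 3 have tokens that the other genotype lacks. WT replicates 2 and 3 and SKG replicates 1 and 2 share tokens across the genotypes. Among those libraries of NKT17 cells, Gfra4 stood at 64.5 and 53.7 CPM in WT against 0 and 0.698 CPM in SKG. Adam33 stood at 28.5 and 59.7 CPM against 0 and 0.523 CPM.

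In NKT2 cells, where WT had Gfra4 but little Adam33, the fall in SKG concerned Gfra4. Its 198 reads in WT NKT2 stood against 1 read in SKG NKT2, a ratio of 187 (95% exact counting interval 33.2 to 7430), and the fitted log2 fold change was -7.20 (SE 1.12). Gfra4 was the 1 member whose libraries did not overlap, in a contrast in which 16.2% of tested genes lay lower in SKG without overlap and 7.95% were called. Adam33 had 12 reads in WT NKT2 and none in SKG NKT2, at least 3.78-fold lower in SKG against 3 counts over the group, but the WT libraries overlapped with those of SKG at 0. Neither gene could be compared in NKT1 cells, where both genotypes were at or under 3 reads in every library and 3.27% of tested genes were called.

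Within WT, both genes set NKT17 apart from NKT2, by unequal amounts. Gfra4 was 6.98-fold higher in NKT17 than in NKT2 (95% exact counting interval 6.02 to 8.14), with a fitted log2 fold change of 2.80 (SE 0.57). The libraries differed by more than that counting interval covers, since the fitted value was 3.76 without WT NKT2 replicate 1 and 2.25 without WT NKT17 replicate 1. Both of these libraries carry the same title token, and each had the most Gfra4 of its group. Adam33 was 65.2-fold higher (37.1 to 127), with a fitted log2 fold change of 5.90 (SE 0.83), which was 8.76 without WT NKT2 replicate 1. Both members lay higher in NKT17 without overlap, as did 18.4% of tested genes, and 20.0% were called in that contrast. Against WT NKT1, which had 3 reads of Gfra4 and none of Adam33 in all, the level in WT NKT17 was 526-fold higher for Gfra4 (180 to 2550) and at least 298-fold higher for Adam33. There 18.0% of tested genes lay higher without overlap and 24.7% were called. WT NKT2 exceeded WT NKT1 75.3-fold in Gfra4 (25.4 to 368), again with no overlap, while Adam33 (12 reads against 0) overlapped. In that contrast 21.7% of tested genes lay higher in NKT2 without overlap and 27.5% were called.

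Library by library, the genes rose and fell together across the groups, but their proportion was not fixed. Over the 18 libraries, log2 CPM (prior count 2) of Gfra4 and Adam33 had a Pearson r of 0.888 and a Spearman rho of 0.722. The libraries share their group, their title token, their depth and many ties at 0, so this is a description. Without the 2 libraries farthest from the median level of Gfra4, WT NKT17 replicates 1 and 2, r was 0.783. Over the 9 WT libraries r was 0.870 (rho 0.865). Over the 9 SKG libraries r was 0.671 (rho 0.300), and it fell to -0.258 without SKG NKT17 replicate 2 and SKG NKT2 replicate 1, so it rested on a few reads. For the deviations of the 18 libraries from their own group means, r was 0.654, and it was 0.344 without WT NKT2 replicate 1, in which Gfra4 lay 1.27 and Adam33 1.75 log2 units above the group means. In WT NKT17, the group with the most reads of both genes, the deviations of replicates 1, 2 and 3 were 0.85, -0.29 and -0.56 for Gfra4. For Adam33 they were 0.15, -0.6 and 0.45, so the genes went opposite ways in replicate 3. In the other groups Adam33 had at most 11 reads in a library, so the r of deviations rests largely on few reads.

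**Figure D2:**
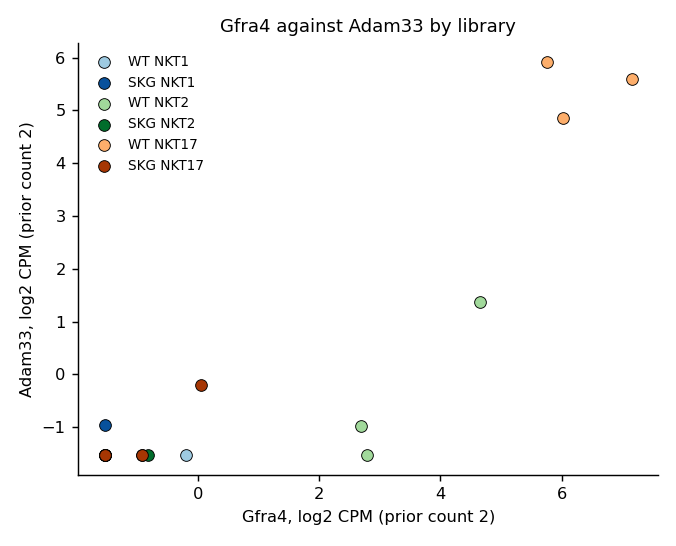
Log2 CPM (prior count 2) of Adam33 against that of Gfra4, one point per library and one colour per group. The 3 WT NKT17 libraries lie at the upper right, the WT NKT2 libraries have intermediate Gfra4 with little Adam33, and the other 12 libraries crowd at the lower left, where several points coincide (r = 0.888 over all 18).

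Neighbouring genes in general varied together far less in these libraries. Of 10825 pairs of adjacent tested genes, the median r was 0.0709 (quartiles -0.183 and 0.322), and 112 pairs (1.03%) had an r at least as high as Gfra4 and Adam33. Of the 1613 pairs on the same strand at most 10 kb apart, the median was 0.115, and 26 pairs (1.61%) reached that value. For deviations from the group means, 241 of the 10825 pairs (2.23%) reached the value of 0.654, which draws on groups with few reads of Adam33. The pair was chosen for its likeness, so these shares place it and do not test it.

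The proportion of Adam33 in the reads of both genes differed between libraries of the same group. It was 25.2% in WT NKT17 replicate 1 (95% Wilson interval 22.6 to 28.0%), 30.7% in replicate 2 (26.9 to 34.7%) and 52.7% in replicate 3 (49.3 to 56.0%). The interval of replicate 3 lies wholly above both others. Replicate 1 had the most Gfra4 of these libraries and replicate 3 the most Adam33. Per length, Gfra4 exceeded Adam33 7.38-fold in replicate 1, 5.64-fold in replicate 2 and 2.24-fold in replicate 3. In WT NKT2 the share of Adam33 was lower, at 8.27% in replicate 1 (4.68 to 14.2%) and 2.56% in replicate 3 (0.454 to 13.2%), and replicate 2 had 0 of 38 reads, which allows up to 7.89%. These intervals cover counting error only, as PCR copies are counted as reads.

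Markers of NKT17 cells were high in the NKT17 libraries of both genotypes, unlike the pair. Summed over 4 of the 5 NKT17 markers, Ccr6 being left out after its values were seen, the level was 1520 to 1590 CPM in WT NKT17 and 1120 to 1160 CPM in SKG NKT17. With Ccr6, which sets the order of the sums, they were 1530 to 1610 and 1720 to 1740 CPM. The SKG NKT17 mean as a share of the WT NKT17 mean was 98.6% for Sdc1, the syndecan used in the sort, 114% for Il17re, a chain of an IL-17 receptor, 53.9% for Il23r and 49.8% for Il1r1, the receptors of IL-23 and IL-1. For Gfra4 it was 0.339% and for Adam33 0.384%. Ccr6, a chemokine receptor on the same list, went the other way, from 12.0 CPM in WT to 592 CPM in SKG. The sums of the 6 NKT2 markers overlapped between the sorted NKT2 and NKT17 cells of SKG mice, at 1690 to 2140 CPM in SKG NKT2 and 1690 to 1820 CPM in SKG NKT17. In WT these sums were 2280 to 2560 CPM in NKT2 and 1520 to 1630 CPM in NKT17. Taken singly, the markers did differ between the SKG subsets. CD4 was part of the sort of NKT2 cells, so the difference in Cd4 is no independent measure. Cd4 (199 to 238 against 18.3 to 21.6 CPM), Il4 (75.6 to 119 against 11.1 to 14.6 CPM), Zbtb16 (154 to 230 against 98.6 to 122 CPM) and Il17rb (428 to 527 against 382 to 411 CPM) were higher in SKG NKT2. Icos (665 to 861 against 944 to 1010 CPM) and Gata3 (162 to 184 against 207 to 271 CPM) were lower there.

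In WT NKT2 libraries the NKT17 markers were close to 0, although Gfra4 was not. Their summed level was 1.05 to 5.52 CPM. As a share of the WT NKT17 mean, the WT NKT2 mean was 0.148% for Sdc1, 0.113% for Il17re, 0.0547% for Il23r, 0.435% for Il1r1 and 1.90% for Ccr6. For Gfra4 this share was 14.4%, and for Adam33 it was 1.77%. The share of Gfra4 lay above those of all 5 markers, of which Sdc1 was part of the sort. Without WT NKT2 replicate 1, the share was 7.34% for Gfra4 and 0.178% for Adam33, so that of Adam33 rested on this library.

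**Figure D3:**
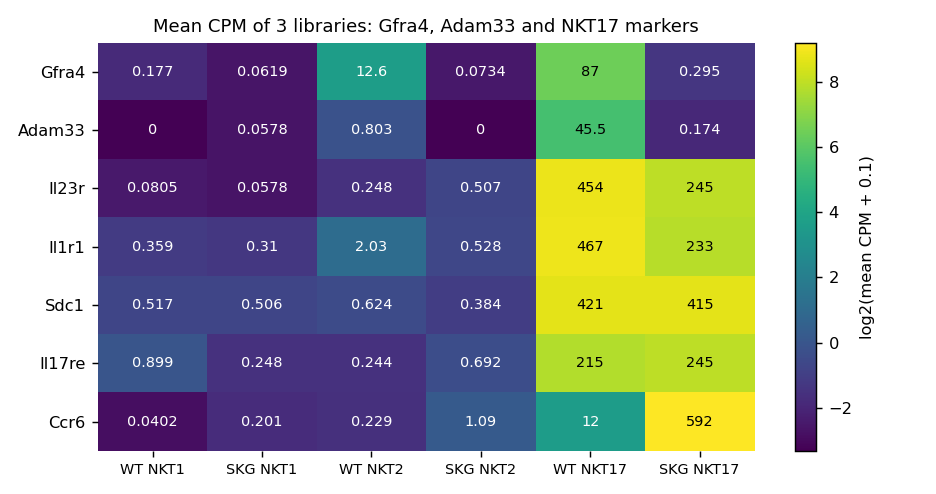
Mean CPM (n = 3) of Gfra4, Adam33 and 5 NKT17 markers in the 6 groups, coloured by log2(mean CPM + 0.1), with the mean printed in each cell. Il23r, Il1r1, Sdc1 and Il17re keep means of 233 to 415 CPM in SKG NKT17, where Gfra4 and Adam33 are at 0.295 and 0.174 CPM.

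Markers of cells known to use either gene were scarce in the NKT17 libraries of both genotypes. Of 7 fibroblast markers, 3 (Col3a1, Pdgfra and Lum) were at 0 in every library, and the list summed to 1.76 to 3.57 CPM in WT NKT17 and 1.4 to 3.68 CPM in SKG NKT17. The 4 smooth muscle markers, Acta2 and Myh11 among them, summed to 0.961 to 1.39 CPM in WT NKT17 and 0.375 to 2.97 CPM in SKG NKT17. The 3 C cell markers (Calca, Calcb and Ret) summed to 0.869 to 7.22 CPM in WT NKT17 and 2.06 to 2.97 CPM in SKG NKT17, and Calcb had no read in either group. Of 6 markers of thyroid follicles and parathyroid, Nkx2-1 and Pth were at 0 throughout, with a sum of 0.686 to 1.22 CPM in WT NKT17 and 0.375 to 1.98 CPM in SKG NKT17.

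Markers of other thymic cells were also low in the NKT17 libraries. Of 5 thymic epithelial markers, Foxn1 was at 0 throughout, and the sum was 9.04 to 18.0 CPM in WT NKT17 and 3.49 to 7.88 CPM in SKG NKT17, most of it Epcam at a mean of 12.2 and 4.15 CPM. The 6 macrophage markers in the table summed to 0.390 to 4.25 and 0.523 to 5.81 CPM, with Siglec1 at 0 in all libraries. In WT NKT2, which also had Gfra4, they summed to 2.45 to 14.1 CPM, with Lyz2 at up to 11.5 CPM. No other list of other cell types exceeded 6.95 CPM in WT NKT2. The part of such cells in the Gfra4 level there was not tested. The 3 B cell markers summed to 0.195 to 1.22 and 0.174 to 0.751 CPM, with Pax5 at 0 in all libraries. The 5 markers of double-positive thymocytes summed to 2.93 to 12.5 CPM in WT NKT17 and 13.8 to 37.7 CPM in SKG NKT17, nearly all of it Cd8b1 (means of 6.54 and 22.5 CPM), while Rag1, Rag2 and Dntt were at 0 in both groups. The Epcam and Cd8b1 levels moved with genotype in NKT17 cells, and their part in the levels of the pair was not tested.

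The genes around the pair were compared next, and these were tested because they played no part in the choice. Of 37 other annotated genes within 500 kb, 28 are in the count table, 18 were tested and 4 had no read in any library. The nearest tested gene, Atrn, was at 56.0 ± 17.3 CPM in WT NKT17 and 90.4 ± 19.4 CPM in SKG NKT17 (log2 fold change 0.69, standard error 0.60, adjusted p in edgeR 0.576), and at 64.3 ± 41.8 and 94.2 ± 19.9 CPM in WT and SKG NKT2 (0.56, standard error 0.60, adjusted p in edgeR 0.676; SD, n = 3). In NKT17 cells Atrn was called with only the libraries compared, but in 0 of the 18 fits without 1 library. Siglec1, on the other side, had no read in the 18 libraries, so the gene next to Adam33 was not detected where Adam33 was.

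Among the 18 tested neighbours, 1 (5.56%) was called in each comparison of SKG with WT, in each case lower in SKG, where 3.27%, 7.95% and 8.37% of all tested genes were called in NKT1, NKT2 and NKT17. Over the neighbours the median log2 fold change was -0.10 in NKT2 and 0.01 in NKT17, against medians over all tested genes within 0.01 of 0. In NKT17 cells the gene called was Cdc25b, which encodes a phosphatase that activates cyclin-dependent kinases and lies 123.1 kb from Adam33. Its WT NKT17 libraries were at 146, 99.6 and 89.9 CPM and its SKG NKT17 libraries at 33.4, 28.8 and 36.2 CPM (log2 fold change -1.77, standard error 0.23, adjusted p in edgeR 2.52e-05). The groups did not overlap, as was the case, in the lower direction, for 13.9% of tested genes, and the call held without any 1 of the 18 libraries. In NKT1 cells its log2 fold change was 0.54 (standard error 0.23, adjusted p in edgeR 0.272), which was not called, but without WT NKT1 replicate 1 it was called higher in SKG (0.92, adjusted p in edgeR 0.0184), as it was with the title token as a block (0.78). The tested genes from Adam33 up to Cdc25b were 1700037H04Rik (log2 fold change -0.31, edgeR adjusted p 0.168), Spef1 (0.12, edgeR adjusted p 0.965) and Cenpb (0.15, edgeR adjusted p 0.901), none of which was called. Spef1 overlaps the start of Cdc25b on the other strand, so reads there cannot be told apart if strand was not used, but Spef1 had at most 22 reads in any library.

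Cdc25b was higher in NKT17 than in the other WT subsets as well, as the pair was. Against NKT2 its log2 fold change was 1.20 (standard error 0.23, adjusted p in edgeR 0.000435) and against NKT1 0.95 (standard error 0.23, adjusted p in edgeR 0.00261). In contrast to the pair it was transcribed in all 6 groups, with a lowest library of 28.8 CPM. Its r with Adam33 over the 18 libraries was 0.625 and with Gfra4 0.519, as a description.

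Smox, the gene of spermine oxidase, 427.7 kb beyond Adam33, behaved differently. It was high in WT NKT17 (356, 323 and 341 CPM) and in SKG NKT17 (325, 289 and 327 CPM), with a log2 fold change of -0.12 (standard error 0.11, adjusted p in edgeR 0.607), and it was called higher in WT NKT17 than in WT NKT2 (2.14, standard error 0.12, adjusted p in edgeR 3.73e-12) and WT NKT1 (2.08, standard error 0.11, adjusted p in edgeR 2.23e-12). In NKT2 cells it fell from 81.3, 78.8 and 72.1 CPM in WT to 35.5, 36.8 and 34.2 CPM in SKG (-1.12, standard error 0.12, adjusted p in edgeR 7.57e-07). In NKT1 cells its log2 fold change of -0.59 (standard error 0.11, adjusted p in edgeR 0.00424) stood just past the 1.5-fold minimum, and 14 of the 18 fits without 1 library put it short of that minimum (log2 fold changes of -0.69 to -0.52 over all 18).

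Between WT subsets, neighbours were called no more often than genes in general. In each of the 3 contrasts 3 of the 18 (16.7%) were called, against 20.0% (NKT17 against NKT2), 24.7% (NKT17 against NKT1) and 27.5% (NKT2 against NKT1) of all tested genes. In WT, 3 neighbours were called higher in NKT17 than in NKT2, Cdc25b, Smox and A730017L22Rik (log2 fold change 1.4, standard error 0.48, adjusted p in edgeR 0.0356), the last of which was lost without WT NKT2 replicate 1 or WT NKT17 replicate 3. Against NKT1, 3 were called higher in NKT17, Cdc25b, Smox and 4930402H24Rik (1.20, standard error 0.40, adjusted p in edgeR 0.0269). A730017L22Rik lies within 4930402H24Rik on the same strand, so the counting may have split their reads. Between NKT2 and NKT1, 1 was higher in NKT2 (Ubox5) and 2 were lower (A730017L22Rik and Mavs). Mavs stood just past the 1.5-fold minimum (log2 fold change -0.59), and it was not called in 14 of the 18 fits without 1 library or in 6 of 7 other settings. Ubox5 (0.59) was not called without WT NKT1 replicate 1 or 3 or WT NKT2 replicate 1, or with only the libraries compared. Of the 10 neighbours not tested, Avp, Siglec1, Mir103-2 and Adra1d had no read, and Oxt, 4930473A02Rik, Prosapip1, Slc4a11, Gm14057 and Hspa12b had at most 3 in any NKT2 or NKT17 library of WT.

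**Figure D4:**
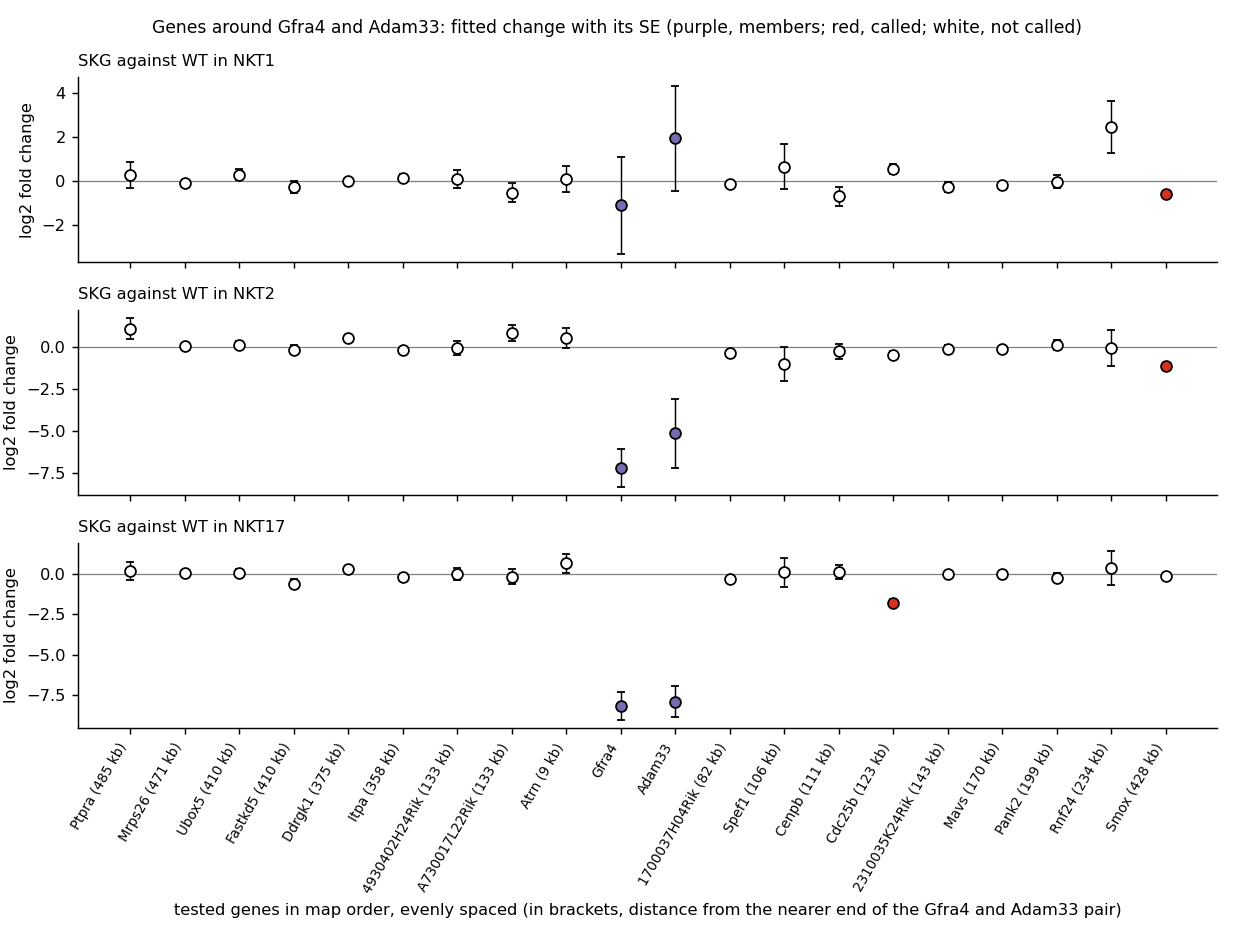
Fitted log2 fold change of SKG against WT with its standard error for the 20 tested genes within 500 kb, in map order and evenly spaced, in NKT1, NKT2 and NKT17 cells; each panel has its own vertical scale. Purple marks Gfra4 and Adam33, red a called neighbour and white one not called. In NKT17 the pair stands at -8.18 and -7.92, Cdc25b at -1.77, and the other 17 between -0.59 and 0.69.

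The partners of GFRA4 were scarcely transcribed in the same cells. Of 7 other genes of GDNF family reception, Gfra1, Gfra2, Gfra3 and Gfral had no read in any library. Ret, the kinase through which GFRA co-receptors signal, had 20, 2 and 16 reads in WT NKT17 (3.90, 0.348 and 2.20 CPM), 12, 0 and 0 in WT NKT2, 15, 0 and 6 in SKG NKT17 and none in SKG NKT2. Its highest library, a WT NKT1 library with 26 reads, belongs to a group with almost no Gfra4. Ret was not called in any SKG comparison. Pspn, the gene of persephin, had at most 3 reads in a library, and of the 4 ligand genes none was tested. Sdc3, a syndecan that can bind GDNF, was lower in WT NKT17 than in WT NKT2 (0.290 against 9.48 CPM, log2 fold change -4.97, standard error 0.94, adjusted p in edgeR 0.000463), the opposite order to that of Gfra4. As WT NKT17 held 0, 5 and 0 reads of it, this value moved to -8.77 without WT NKT17 replicate 2 and to -3.70 without WT NKT2 replicate 1. In SKG NKT17, Sdc3 stood at 1.27 to 2.82 CPM against 0 to 0.869 CPM in WT NKT17. That change (log2 fold change 2.65, standard error 1.04, adjusted p in edgeR 0.131) was not called by edgeR but was called by DESeq2.

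Of 14 adaptor and signalling genes used by RET, 9 were tested, and none was called in SKG against WT in NKT1. In NKT2 and in NKT17 the same 1 (11.1%) was called, near the 7.95% and 8.37% of all tested genes called there. This was Src, a membrane-linked tyrosine kinase, which rose in SKG NKT2 (4.85, 4.70 and 2.41 CPM against 1.02, 0 and 0.323 CPM in WT, log2 fold change 3.16, standard error 0.74, adjusted p in edgeR 0.00800) and in SKG NKT17 (14.2, 15.5 and 10.7 CPM against 0.976, 0.522 and 1.51 CPM, log2 fold change 3.69, standard error 0.63, adjusted p in edgeR 0.000376). In NKT2 the value was 4.39 without WT NKT2 replicate 1 and 2.57 without WT NKT2 replicate 2, and the call held in both cases. The libraries of the genotypes did not overlap in either subset, but the share of all tested genes higher in SKG without overlap was not taken. Src is shared by many receptors, so its place on this list does not tie it to Gfra4.

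Of the protease family of Adam33, single members were called in SKG NKT17 cells, in both directions. Of 9 other ADAM proteases, 7 were tested, and in SKG NKT17 2 were called higher, 1 lower and 4 were not called, in a contrast in which 8.37% of all tested genes were called. None was called in NKT1 or NKT2 by edgeR (0 in NKT1 and 1 in NKT2 at an unadjusted p under 0.05, and 0 and 1 called by DESeq2, the latter Adam9). Adam8, a protease of leukocytes, rose from 2.93, 1.04 and 4.80 CPM in WT NKT17 to 58.4, 30.4 and 66.1 CPM in SKG NKT17 (log2 fold change 4.10, standard error 0.67, adjusted p in edgeR 0.000473). Adam19 rose from 22.1, 22.3 and 33.5 CPM to 55.5, 63.5 and 73.8 CPM (1.30, standard error 0.21, adjusted p in edgeR 0.000230). In neither gene did the genotypes overlap, but the share of all tested genes higher in SKG without overlap was not taken.

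Adam12, another metalloprotease of the family, was like Adam33 nearly restricted to NKT17 cells among the WT subsets. It was at 34.7, 33.4 and 54.1 CPM in WT NKT17, with 1 read in the 3 WT NKT2 libraries and none in WT NKT1 (log2 fold change 8.97 against NKT2, standard error 0.70, adjusted p in edgeR 4.29e-09). In SKG NKT17 it fell to 21.8, 11.5 and 19.5 CPM (-1.21, standard error 0.38, adjusted p in edgeR 0.0544), so it kept 43.2% of its WT mean, where Adam33 kept 0.384%. That call was lost without WT NKT17 replicate 3, SKG NKT17 replicate 2 or SKG NKT17 replicate 3 (edgeR adjusted p up to 0.265). Adam10 and Adam17, the widely used shedding proteases, were not called in any SKG comparison. Adam10 nevertheless lay lower in SKG NKT17 without overlap, at 185 ± 29.6 CPM against 248 ± 16.1 CPM in WT (SD, n = 3). Of all tested genes, 13.9% lay lower there without overlap. Its log2 fold change was -0.42 (standard error 0.12, adjusted p in edgeR 0.0344), and in this fit Adam10 fell short of a call by the 1.5-fold minimum. Without 1 library its edgeR adjusted p ranged from 0.00815 to 0.179.

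Of 9 regulators of ADAM proteases, 5 were tested. In SKG against WT, 1 (20.0%) was called in NKT1, none in NKT2 and 2 (40.0%) in NKT17. Of all tested genes, 3.27%, 7.95% and 8.37% were called there, and with only 5 genes tested nothing is read from these shares. Furin, a convertase that cuts off the inhibitory prodomain of many proteases, fell in SKG NKT1 (21, 21.2 and 20.1 CPM against 90.3, 93.0 and 90.2 CPM in WT, log2 fold change -2.13, standard error 0.21, adjusted p in edgeR 2.35e-06). It rose in SKG NKT17 (62.0, 63.2 and 60.2 CPM against 24, 26.1 and 47.1 CPM, 0.92, standard error 0.21, adjusted p in edgeR 0.00493). Rhbdf2, an inactive rhomboid that escorts ADAM17 to the cell surface, also rose in SKG NKT17 (0.70, standard error 0.23, adjusted p in edgeR 0.0628), a call lost without WT NKT17 replicate 1 or 2 or SKG NKT17 replicate 1 or 3.

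Over both families together, 24 of 46 genes were tested. In SKG NKT17, 5 were called higher and 1 lower, with a median log2 fold change of 0.22 against 0.00 over all genes tested. These calls are 25.0% of the 24, where 8.37% of all tested genes were called in that contrast, and they numbered 4 to 7 without 1 library. As the lists were chosen with earlier results of these data known, the share places the calls and does not test them. In NKT1 and in NKT2, 1 of the 24 (4.17%) was called, against 3.27% and 7.95% of all tested genes.

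**Figure D5:**
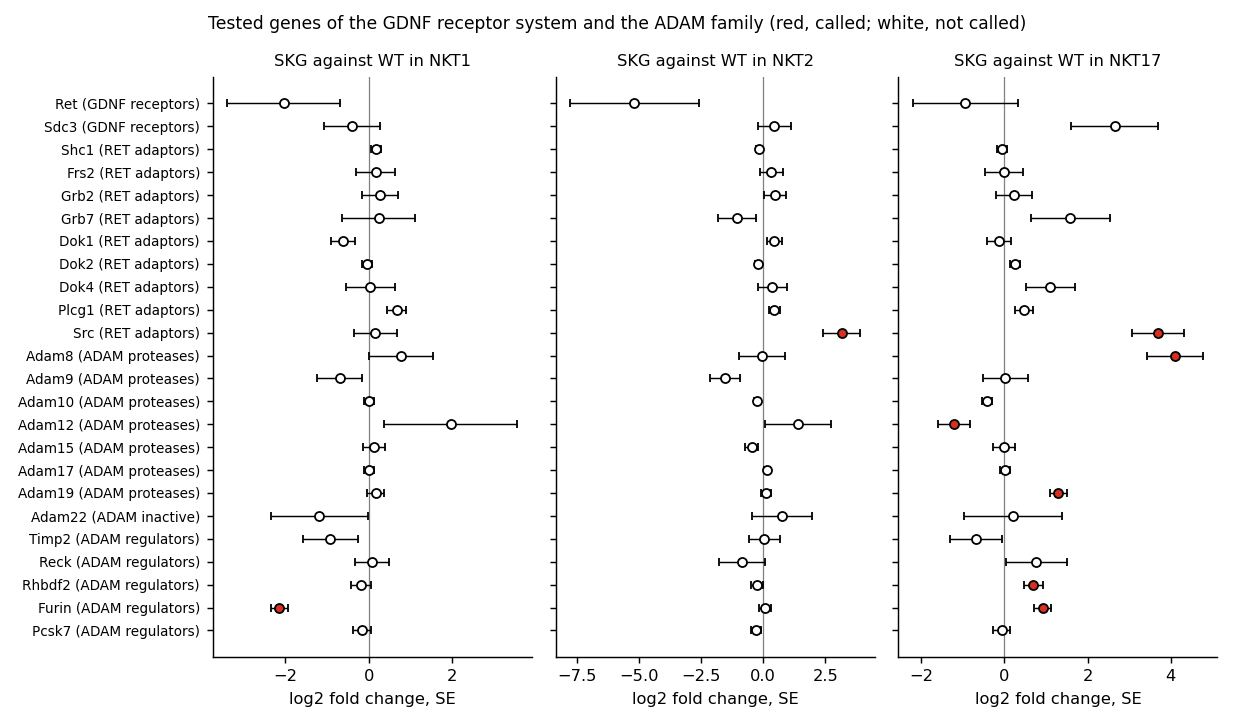
Fitted log2 fold change of SKG against WT with its standard error for the 24 tested genes of the GDNF receptor system, the RET adaptors and the ADAM family, in NKT1, NKT2 and NKT17 cells. Red marks called genes: Furin in NKT1, Src in NKT2, and Src, Adam8, Adam12, Adam19, Rhbdf2 and Furin in NKT17.

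The genes most like the pair over the 18 libraries lay on other chromosomes. Of the 5 tested genes with the highest r with Gfra4, Akap6, an anchor of protein kinase A, came first (r = 0.960) and had reads in WT NKT2 (mean 3.42 CPM) and WT NKT17 (7.23 CPM) only. Then came Ivns1abp (r = 0.946), which was transcribed in all groups but was at 525 and 557 CPM in WT NKT2 and WT NKT17 against 278 to 328 CPM in the others, and Cbfa2t3, a transcriptional corepressor (r = 0.946), at 16.2 and 49.0 CPM against 0.818 to 3.55 CPM. Lmo1, a LIM-only transcriptional cofactor, and Fblim1, a filamin-binding protein (both r = 0.931), completed the 5. Adam33 came 13th.

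With Adam33 the most alike, 4 of the 5 being named here, were Fam59a (r = 0.979), Glyat, a glycine acyltransferase (0.948), Lmo1 (0.925) and Arl4a, a small GTPase (0.922). Glyat had a mean of 19.0 CPM in WT NKT17, no read in WT NKT2, and 0.0944 CPM in SKG NKT17. Gfra4 came 10th. The genes most like Gfra4 thus included ones shared by WT NKT2 and WT NKT17, and those most like Adam33 included Glyat and Fam59a, with means of 19.0 and 8.08 CPM in WT NKT17 and at most 0.502 CPM elsewhere, and Lmo1 stood in both lists. They were picked by this likeness, and so their own falls in SKG are part of the choice.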

How the data were processed

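RNA of 18 sorted iNKT libraries was sequenced from poly-A cDNA made by a full-length method and tagmented with Tn5, as single-end reads. The deposited values are raw counts per gene symbol, which the authors made with htseq-count after TopHat alignment and removal of tRNA, rRNA, adapter, spike-in and low-complexity reads. The study's methods name build mm9 and the submitters' processing notes name mm10, with HTSeq 0.7.1, TopHat 1.4.1 and Bowtie 1.0.0. Positions here come from GENCODE M1 (NCBIM37), joined by symbol. Totals were 4391029 to 8895917 counts per library. The count table has 2 columns of no listed sample, which were not used. Libraries of a group differed by more than counting noise (chi-square per degree of freedom 5.66 to 25.6) and were kept as 3 replicates.

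Of 15582 genes with a count, 11118 passed edgeR's filterByExpr and were fitted with edgeR 4.0.16 in R 4.3.3 (TMM factors 0.928 to 1.07, robust quasi-likelihood, 6 groups, 12 residual degrees of freedom). Tests were two-sided, with Benjamini-Hochberg adjustment over all tested genes, and a call needed an adjusted p under 0.1 and a fold of at least 1.5. The steps were tested on simulated data. Counting intervals are 95% exact (conditional binomial) for ratios and 95% Wilson for shares.

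The members and the lists of markers, GDNF genes, RET adaptors and ADAM genes were chosen with earlier results of these data known. Named were the pair, every gene of the table within 500 kb, the 5 tested genes most like each member, and list genes called in SKG against WT, with other detected list genes by their range or for their role. Adam9, Plcg1, and list genes named for WT subsets, were singled out after their values were seen. Alternatives were DESeq2 1.42.0, RLE and upper-quartile scaling, other filters, thresholds and windows, a fit of the compared libraries, a replicate block, and each library left out. Genes that these rules or lists would also name but that are not reported here were left out of the list sums.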

Additional observations from a re-analysis of the deposited data

Results flagged for a closer look

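The SKG effect (log2 fold change of SKG against WT) differed between subsets for 6 of the 42 tested neighbours and family genes. Of the 42, 2 (4.76%) were called for NKT2 minus NKT1, 5 (11.9%) for NKT17 minus NKT1 and 4 (9.52%) for NKT17 minus NKT2, where 3.87%, 4.17% and 2.19% of all 11118 tested genes were called. These contrasts were added after seeing the data and tested with edgeR over all genes, in the main fit only. As 24 of the 42 come from lists chosen with earlier results of these data known, the shares place the calls and do not test them. The effect on Cdc25b was lower in NKT17 than in NKT1 by a log2 difference of -2.31 (SE 0.324, edgeR adjusted p 0.000185) and than in NKT2 by -1.31 (SE 0.327, edgeR adjusted p 0.0472). That on Smox was higher in NKT17 than in NKT2 by 1.01 (SE 0.16, edgeR adjusted p 0.000881). Furin's effect was higher in NKT2 than in NKT1 by 2.20 (edgeR adjusted p 0.00033) and in NKT17 than in NKT1 by 3.06 (edgeR adjusted p 3.72e-06). For Src the differences were 3.00 (NKT2 minus NKT1, edgeR adjusted p 0.0903) and 3.53 (NKT17 minus NKT1, edgeR adjusted p 0.0173). For Adam19 they were 1.13 (NKT17 minus NKT1, edgeR adjusted p 0.0342) and 1.17 (NKT17 minus NKT2, edgeR adjusted p 0.0393). For Adam8 they were 3.33 (NKT17 minus NKT1, edgeR adjusted p 0.091) and 4.16 (NKT17 minus NKT2, edgeR adjusted p 0.0971). Differences that share a subset share its libraries. Gfra4 and Adam33 were left out of these tests because their levels chose them.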

How the results depend on the processing

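The 5 fitted fold changes of Gfra4 and Adam33 given above kept their direction under all alternatives run. The block on the title token gave Gfra4 log2 fold changes of -7.29 (SKG against WT, NKT17) and -6.08 (NKT2). The r of deviations over genes between libraries of different groups was -0.151 to 0.351 with the same token (median 0.0484, 12 of 36 pairs above 0.1) and -0.369 to 0.224 with other tokens (median -0.0355, 15 of 99). Not every same-token pair was above 0.1, and what the token marks is not given. Without 1 library the Gfra4 change ranged from -9.72 to -7.52 (NKT17) and -9.19 to -6.24 (NKT2), and the Adam33 change from -11.05 to -7.29 (SKG against WT, NKT17) and 5.29 to 8.76 (WT NKT17 against NKT2), where that of Gfra4 was 2.25 to 3.76. The r of 0.888 was 0.783 without the 2 farthest libraries. The r of deviations from group means was 0.464 with a prior count of 0.5, 0.543 on log2 of raw counts plus 1, and 0.344 to 0.754 without 1 library.

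Small counts of calls moved most, and causes were not tested. Neighbours called in NKT1 numbered 0 with DESeq2, upper-quartile scaling, a mean of at least 50 counts, only the libraries compared or a 250 kb window, 2 with the replicate block, 3 in a 1 Mb window, and 0 to 2 without 1 library. In NKT2 they numbered 3 with no fold minimum, 0 in a 250 kb window and 1 to 2 without 1 library. In NKT17 they numbered 2 with only the libraries compared or a 1 Mb window and 1 to 2 without 1 library. Within WT, NKT17 against NKT2 gave 5 with the replicate block and 6 with no fold minimum, NKT17 against NKT1 gave 6 in a 1 Mb window, and NKT2 against NKT1 gave 1 with a mean of at least 50 counts or only the libraries compared, 5 with no fold minimum or a 1 Mb window, and 1 to 3 without 1 library. Family genes called in NKT1 numbered 2 with DESeq2 (Furin and Plcg1) or the replicate block, in NKT2 2 with DESeq2 and 0 with a mean of at least 50 counts, and 1 to 2 without 1 library in both. In NKT17 they numbered 4 to 7 without 1 library, and DESeq2 called Sdc3 there besides the genes called by edgeR. The replicate block also ended the call of Adam12 in SKG NKT17. With at most 4 reads a library in the SKG and NKT1 groups, the folds against them give an order of size at most. Depth limits these folds, as does the spread between libraries. Gfra4 in WT NKT17 against WT NKT2 rests on 1494 and 198 reads and is limited by that spread.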
